A study of Mus musculus with 2 samples.

Results

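Notch receptors, ligands and target genes were followed in single cells of the Myf5 lineage. The set was chosen by symbol and held 10 of the 32285 genes in the count table: the receptors Notch1, Notch2 and Notch3, the ligands Dll1, Dll4, Jag1 and Jag2, and the target genes Hes1, Hey1 and Heyl. Each symbol matched a single gene identifier. UMIs, the unique molecular identifiers that count RNA molecules, were summed per library over cell classes and, in muscle cells, over bins of the UMI count of Myog, the transcription factor of differentiating myocytes. The study asked how Myf5-derived cells develop without the splicing factor SRSF2. Cells came from trunks and limbs of E14 mouse embryos that had been decapitated and eviscerated, and they were sorted for the tdTomato (tdT) reporter.

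The control library, Het/tdT, had the genotype SRSF2f/w/Myf5-Cre/tdT, with 1 floxed and 1 wild-type Srsf2 allele. The mutant library, MKO/tdT, had the genotype SRSF2f/f/Myf5-Cre/tdT. Both carried Myf5-Cre, which recombines floxed alleles in cells that express or once expressed Myf5, and a Rosa26 tdT reporter that needs Cre. The gate was therefore one for Myf5-derived cells, and how many embryos were pooled was not given. There was 1 library per genotype, so no difference between the libraries has a replicate check. The names Het/tdT and MKO/tdT follow the headings of the study's quality summaries, whose cell numbers match the libraries, whereas the titles of the deposited samples give the opposite genotypes. Every direction from Het/tdT to MKO/tdT is given under those headings and reverses under the titles.

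Srsf2 itself was 219 (217 to 221) CPM in Het/tdT and 153 (151 to 155) CPM in MKO/tdT over all kept cells, where CPM is UMIs per 1000000 UMIs of the library or class. It was lower in MKO/tdT in 10 of the 10 classes with at least 50 cells in each library, with intervals apart in 9 and overlapping in Peri-like cells. Brackets hold exact 95% limits throughout, which cover counting error only. Whether the counted 3' ends lie in the deleted part of Srsf2 was not given in the sources used here. After filtering, 12523 cells of Het/tdT and 10345 of MKO/tdT were kept, with medians of 10751 and 9480 UMIs, and 74 barcode sequences occurred in both libraries. Cells were given a class when they passed UMI limits on that class's markers and on no other class's, Mesen aside. A cell that passed Mesen and another class took the other class. Markers kept out of the limits were highest in their own class for 20 of 24 genes. The exceptions were Col1a2, which was higher in Osteo-like cells, and Fbn1, higher in Peri-like cells, both held out for Mesen, Cspg4, which was higher in Chon-like than in Peri-like cells, and Nes, which was higher in SKM-like than in NPC-like cells.

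Notch receptors are membrane proteins that bind Delta-like and Jagged ligands on neighbouring cells. Binding leads to cleavage of the receptor by ADAM proteases and gamma-secretase, and the freed intracellular domain joins RBPJ and Mastermind proteins on DNA to activate genes of the Hes and Hey families, which encode transcriptional repressors. In muscle progenitors, Notch signalling is known to hold back differentiation and to maintain the Pax7 pool, with Dll1 as a main ligand. In vessels, Dll4 and Jag1 act in arterial identity and sprouting, and Notch3 is the receptor of mural cells.

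In GRCm38 (GENCODE M21), the receptors were Notch1 (ENSMUSG00000026923) at chr2:26457903-26516663 on the minus strand, Notch2 (ENSMUSG00000027878) at chr3:98013527-98150361 on the plus strand and Notch3 (ENSMUSG00000038146) at chr17:32120820-32166852 on the minus strand. The ligands were Dll1 (ENSMUSG00000014773) at chr17:15367354-15376872 on the minus strand, Dll4 (ENSMUSG00000027314) at chr2:119325784-119335962 on the plus strand, Jag1 (ENSMUSG00000027276) at chr2:137081456-137116644 on the minus strand and Jag2 (ENSMUSG00000002799) at chr12:112907819-112929776 on the minus strand. The targets were Hes1 (ENSMUSG00000022528) at chr16:30064384-30067796 on the plus strand, Hey1 (ENSMUSG00000040289) at chr3:8663359-8667256 on the minus strand and Heyl (ENSMUSG00000032744) at chr4:123233556-123249875 on the plus strand. All 10 are annotated as protein coding. Genes annotated on the same strand overlap Notch1 (Mir6996), Notch2 (Gm42819 and Gm42820) and Jag2 (Mir6941), so their UMIs are uncertain as far as counting could split reads.

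RefSeq promoter windows (GRCm38.p6) were matched for 7 of the 10 genes (not Hes1, Hey1 and Heyl). The 250 bases before the start were searched on both strands for CAGCTG, an E-box of the kind that MyoD-family factors bind, which reads the same on both strands, and for TGGGAA, a core of RBPJ sites. CAGCTG occurred in 13% and TGGGAA in 21.6% of the 32851 windows of all genes. Among the 8 windows of the 7 genes, of which Dll1 had 2 (an upstream and a downstream start), CAGCTG was found before the upstream start of Dll1 and before the start of Jag1, and TGGGAA in 0 windows. The windows of Jag1, Jag2 and the downstream start of Dll1 overlap annotated untranslated regions on the minus strand, so they lie partly inside annotated transcripts. The Notch1 window, chr2:26503823-26504072, lies inside the gene span given above and not next to its annotated start. The Notch2 window ends at 98013537, just past the annotated start. The windows of Dll1 and Notch3 are shown because these genes had the largest differences in opposite directions between cells with and without Myog. The capitals mark CAGCTG, and a match is a description of letters, not of a bound site.
Dll1, upstream start, chr17:15376933-15377182, minus strand: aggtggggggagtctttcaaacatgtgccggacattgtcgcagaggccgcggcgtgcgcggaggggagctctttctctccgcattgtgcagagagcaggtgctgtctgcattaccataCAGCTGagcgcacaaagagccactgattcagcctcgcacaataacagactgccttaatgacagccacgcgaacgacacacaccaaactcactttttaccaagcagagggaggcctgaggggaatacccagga
Notch3, chr17:32166891-32167140, minus strand: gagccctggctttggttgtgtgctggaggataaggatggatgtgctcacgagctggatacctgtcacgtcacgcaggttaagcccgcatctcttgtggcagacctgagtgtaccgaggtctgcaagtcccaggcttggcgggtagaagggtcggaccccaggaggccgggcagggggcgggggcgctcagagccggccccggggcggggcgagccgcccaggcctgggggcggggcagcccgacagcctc

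The genes were highest in 5 different classes, and the highest class of a gene was the same in both libraries for all 10 genes. The order was read over the 10 classes with at least 50 cells in each library. Skeletal muscle (SKM-like) cells were highest for Dll1 among these. The neural progenitor (NPC-like) cells, too few for the order, had Dll1 at 51.1 and 38.1 CPM. That rests on 5 UMIs in each library, too few to order them against SKM-like cells. Pericytes (Peri-like) were highest for Notch3, Jag1 and Heyl, endothelial (Endo-like) cells for Dll4, Hes1 and Hey1, epidermal (Epi-like) cells for Notch1 and Jag2, and mesenchymal (Mesen-like) cells for Notch2. None of these genes was used to set a class. Peri-like cells could pass the Mesen limits as well. The Mesen markers summed to 1350 CPM in Het/tdT and 1263 CPM in MKO/tdT in Peri-like cells. In Mesen-like cells the sums were 2353 CPM in Het/tdT and 2206 CPM in MKO/tdT. The part of cells that passed Mesen as well in the Peri-like levels was not tested. Levels are compared between classes for 1 gene, not between genes.

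**Figure D1:**
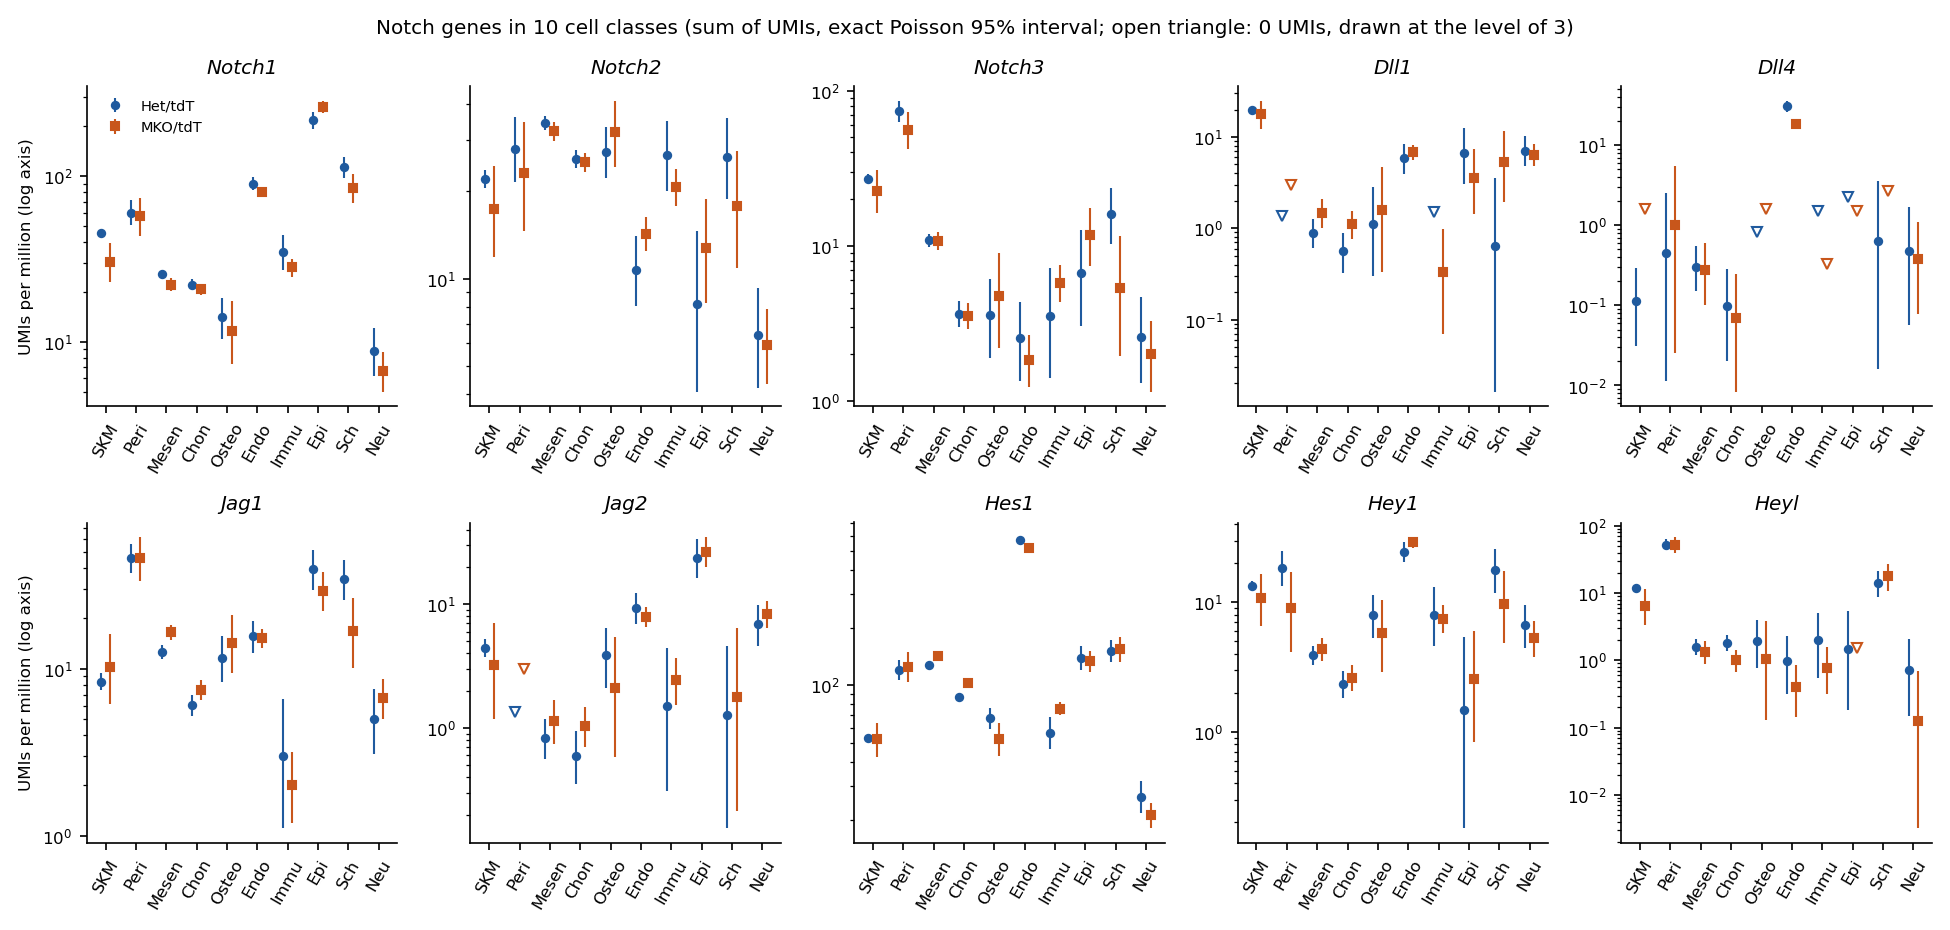
Level of each Notch gene (CPM, log axis) in 10 cell classes of Het/tdT (circles) and MKO/tdT (squares), with exact Poisson 95% intervals. Open triangles mark classes with 0 UMIs and are drawn at the level of 3 UMIs. Dll4 stands alone in Endo-like cells, at 31.0 and 18.5 CPM, and Heyl is highest in Peri-like cells, at 52.4 and 52.1 CPM.

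Notch1, the receptor with the widest known roles, was 217 (193 to 244) CPM in Het/tdT and 262 (239 to 285) CPM in MKO/tdT in Epi-like cells. Schwann-lineage (Sch-like) cells followed with 113 CPM in Het/tdT and 84.4 CPM in MKO/tdT, and Endo-like cells with 89.8 CPM in Het/tdT and 79.5 CPM in MKO/tdT. The intervals of Sch-like and Endo-like cells overlapped, while Epi-like cells stood above both. SKM-like cells were in the middle, with 45.4 CPM in Het/tdT and 30.3 CPM in MKO/tdT, and neurons (Neu-like) were lowest with 8.77 CPM in Het/tdT and 6.65 CPM in MKO/tdT. In cells thinned to 2000 UMIs, 29.4% and 30.0% of Epi-like cells held a Notch1 UMI, beside 1.89% and 1.56% of Neu-like cells. Without thinning the shares were 78.8% and 89.1% against 5.83% and 5.02%, at median depths of 13524 and 17392 UMIs against 6470.5 and 7084.

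Notch2 had the narrowest range of the 3 receptors, as its highest class was 34.2 and its lowest 6.40 CPM in Het/tdT. Its level was 34.2 (32.4 to 36.2) CPM in Het/tdT and 32.1 (29.7 to 34.5) CPM in MKO/tdT in Mesen-like cells. Chondrocytes (Chon-like) had 25.8 CPM in Het/tdT and 25.1 CPM in MKO/tdT, and SKM-like cells had 22.0 CPM in Het/tdT and 17.3 CPM in MKO/tdT. From Mesen-like down to Chon-like cells of Het/tdT, and down to Epi-like cells of MKO/tdT, each class overlapped the next in the order, although Mesen-like cells lay above Chon-like cells in both libraries. Endo-like cells were lower, with 10.7 CPM in Het/tdT and 14.3 CPM in MKO/tdT, and Neu-like cells had 6.40 CPM in Het/tdT and 5.90 CPM in MKO/tdT. Notch2 and Notch1 therefore had different low classes among the vessels: endothelium was among the highest classes for Notch1 and among the lowest for Notch2.

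Notch3 was 74.1 (63.2 to 86.4) CPM in Het/tdT and 56.1 (42.4 to 72.9) CPM in MKO/tdT in Peri-like cells. SKM-like cells came next with 27.1 (25.4 to 28.9) CPM in Het/tdT and 22.7 (16.4 to 30.7) CPM in MKO/tdT, 2.74-fold and 2.47-fold below. Mesen-like cells held 10.9 CPM in Het/tdT and 10.8 CPM in MKO/tdT, and Endo-like cells were lowest with 2.54 CPM in Het/tdT and 1.85 CPM in MKO/tdT. Peri-like and SKM-like cells were apart in both libraries, and in Het/tdT SKM-like cells also stood above Sch-like cells.

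Dll1, a ligand known from developing muscle and the nervous system, was 19.7 (18.2 to 21.2) CPM in Het/tdT and 17.9 (12.3 to 25.1) CPM in MKO/tdT in SKM-like cells. That was 2.76-fold and 2.62-fold above the next class, Neu-like cells in Het/tdT and Endo-like cells in MKO/tdT. Mesen-like cells held 0.886 CPM in Het/tdT and 1.47 CPM in MKO/tdT, and 0 UMIs were counted in Peri-like cells of either library. Dll4, the ligand of sprouting and arterial endothelium, was 31.0 (26.4 to 36.2) CPM in Het/tdT and 18.5 (16.4 to 20.8) CPM in MKO/tdT in Endo-like cells. Every other class held at most 1.0 CPM, a level set by 1 UMI in Peri-like cells of MKO/tdT. Outside the named classes, 100 of the 287 Dll4 UMIs of Het/tdT and 152 of the 457 of MKO/tdT lay in cells that passed several classes and were left out.

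Jag1 was highest in Peri-like cells, with 46.1 (37.6 to 56.0) CPM in Het/tdT and 46.1 (33.8 to 61.5) CPM in MKO/tdT. Epi-like cells had 39.4 CPM in Het/tdT and 29.1 CPM in MKO/tdT and Sch-like cells 34.6 CPM in Het/tdT and 16.9 CPM in MKO/tdT, and each of the 3 overlapped the next in both libraries, with Sch-like cells above the fourth class in Het/tdT only. Immune (Immu-like) cells were lowest with 3.02 CPM in Het/tdT and 2.0 CPM in MKO/tdT. Jag2 was 23.8 (16.3 to 33.6) CPM in Het/tdT and 26.6 (19.8 to 34.8) CPM in MKO/tdT in Epi-like cells, apart from all other classes. Endo-like cells had 9.37 CPM in Het/tdT and 7.94 CPM in MKO/tdT, Neu-like cells had 6.87 CPM in Het/tdT and 8.29 CPM in MKO/tdT, and Peri-like cells had 0 UMIs in both libraries. The 2 Jagged ligands thus parted in pericytes, where Jag1 was highest and Jag2 was not detected at this depth. The exact upper limits for its 0 UMIs were 1.67 CPM in Het/tdT and 3.70 CPM in MKO/tdT.

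Hes1, a repressor induced by Notch and by other signals, was 571 (550.2 to 592) CPM in Het/tdT and 521 (509 to 532) CPM in MKO/tdT in Endo-like cells, 3.78-fold and 3.37-fold above Sch-like cells. It was found in all 10 classes, and SKM-like cells, with 53.2 CPM in Het/tdT and 52.5 CPM in MKO/tdT, were apart from the lowest class, Neu-like cells, but overlapped the class before them. Hey1, a repressor of endothelium and other Notch-active cells, was 24.6 (20.5 to 29.3) CPM in Het/tdT and 29.1 (26.5 to 32.0) CPM in MKO/tdT in Endo-like cells. In Het/tdT this overlapped Peri-like cells at 18.5 CPM, and in MKO/tdT it stood above every other class. SKM-like cells had 13.4 CPM in Het/tdT and 10.8 CPM in MKO/tdT.

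Heyl, a Hey-family repressor known from vascular mural cells and muscle progenitors, was 52.4 (43.3 to 62.9) CPM in Het/tdT and 52.1 (38.9 to 68.3) CPM in MKO/tdT in Peri-like cells. Sch-like cells had 14.1 CPM in Het/tdT and 17.8 CPM in MKO/tdT and SKM-like cells 12.1 CPM in Het/tdT and 6.49 CPM in MKO/tdT. Each of the other classes had at most 2.01 CPM in either library. Notch3, Jag1 and Heyl thus shared Peri-like cells as their highest class, and Hes1, Hey1 and Dll4 shared Endo-like cells. Endo-like cells held 5 and 6 Heyl UMIs in all, so the endothelial levels of Hes1 and Hey1 did not extend to Heyl.

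Endo-like cells were divided by lymphatic and arterial marker limits. Arterial-like cells were few, 19 and 37, beside 184 and 543 lymphatic-like and 155 and 307 other Endo-like cells in Het/tdT and MKO/tdT. Dll4 was 165 (119 to 222) CPM in Het/tdT and 91.9 (72.3 to 115) CPM in MKO/tdT in arterial-like cells. It was 34.1 CPM in Het/tdT and 24.9 CPM in MKO/tdT in other Endo-like cells and 15.2 CPM in Het/tdT and 9.24 CPM in MKO/tdT in lymphatic-like cells. The 3 groups did not overlap in either library.

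Other genes shared the arterial side. Jag1 was 104 CPM in Het/tdT and 56.3 CPM in MKO/tdT in arterial-like cells, against 10.2 CPM in Het/tdT and 11 CPM in MKO/tdT in lymphatic-like cells. Jag2 was 46.0 CPM in Het/tdT and 30.6 CPM in MKO/tdT against 3.80 CPM in Het/tdT and 6.43 CPM in MKO/tdT. Hey1 was 107 CPM in Het/tdT and 79.6 CPM in MKO/tdT against 24.3 CPM in Het/tdT and 31.6 CPM in MKO/tdT, with other Endo-like cells at 15.2 and 15 CPM. For these 3 genes the arterial-like interval lay above the lymphatic-like one in both libraries.

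Hes1 was highest on the lymphatic side instead. It was 760.3 (727 to 794) CPM in Het/tdT and 635 (619 to 651) CPM in MKO/tdT in lymphatic-like cells, 403 CPM in Het/tdT and 402 CPM in MKO/tdT in arterial-like cells and 366 CPM in Het/tdT and 305 CPM in MKO/tdT in other Endo-like cells. Lymphatic-like cells stood above the other two groups in both libraries. Notch2 was also higher in lymphatic-like cells, 14 CPM in Het/tdT and 19 CPM in MKO/tdT, than in other Endo-like cells, 7.62 CPM in Het/tdT and 6.86 CPM in MKO/tdT, with intervals apart in MKO/tdT and overlapping in Het/tdT. Notch1 was 104 CPM in Het/tdT and 159 CPM in MKO/tdT in arterial-like and 81.2 CPM in Het/tdT and 65.6 CPM in MKO/tdT in lymphatic-like cells, apart in MKO/tdT and overlapping in Het/tdT.

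Within SKM-like cells, Dll1 was higher and Notch3, Jag1 and all 3 targets were lower along Myog in Het/tdT. Of the 9 genes with at least 50 UMIs in the compared bins of Het/tdT, 1 was called higher and 5 lower in cells with 5 or more Myog UMIs than in cells with 0. A gene was called when its level differed at least 2-fold and the interval of the log2 ratio lay on 1 side of 0. Over all genes with that many UMIs, 6.87% were called higher and 11.3% lower. The median log2 ratio was -1.24 over the 9 genes and -0.17 over all genes measured. The bins held 957, 442 and 893 cells of Het/tdT with 0, 1 to 4 and 5 or more Myog UMIs, at median depths of 14763, 15447.5 and 13893 UMIs. Pax7, the marker of progenitors, was 161, 116 and 20.6 CPM, and Myh3, an embryonic myosin, 3.54, 15.1 and 217 CPM. Both are among the genes that set the class. The 4 Peri markers summed to 2.72, 2.93 and 4.31 CPM over the bins, against 838 in Peri-like cells, and the 5 Endo markers to 4.29, 7.80 and 6.10 CPM, against 1754 in Endo-like cells. The middle bin stood apart for the 5 Mesen markers, with 107, 152 and 106 CPM, and for the 5 Osteo markers, with 24.9, 129 and 19.6 CPM, and their part in the middle levels was not tested. Myog UMIs were also found outside muscle, in 10.9% of Mesen-like and 18.3% of Immu-like cells of Het/tdT, or 2.35% and 3.25% when thinned to 2000 UMIs, at median depths of 9521 and 13016.5 UMIs. The source of these UMIs, free RNA or another, was not tested. If they also occur in SKM-like cells, they can place cells in the low Myog bins, where 1 UMI need not mark a stage.

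**Figure D2:**
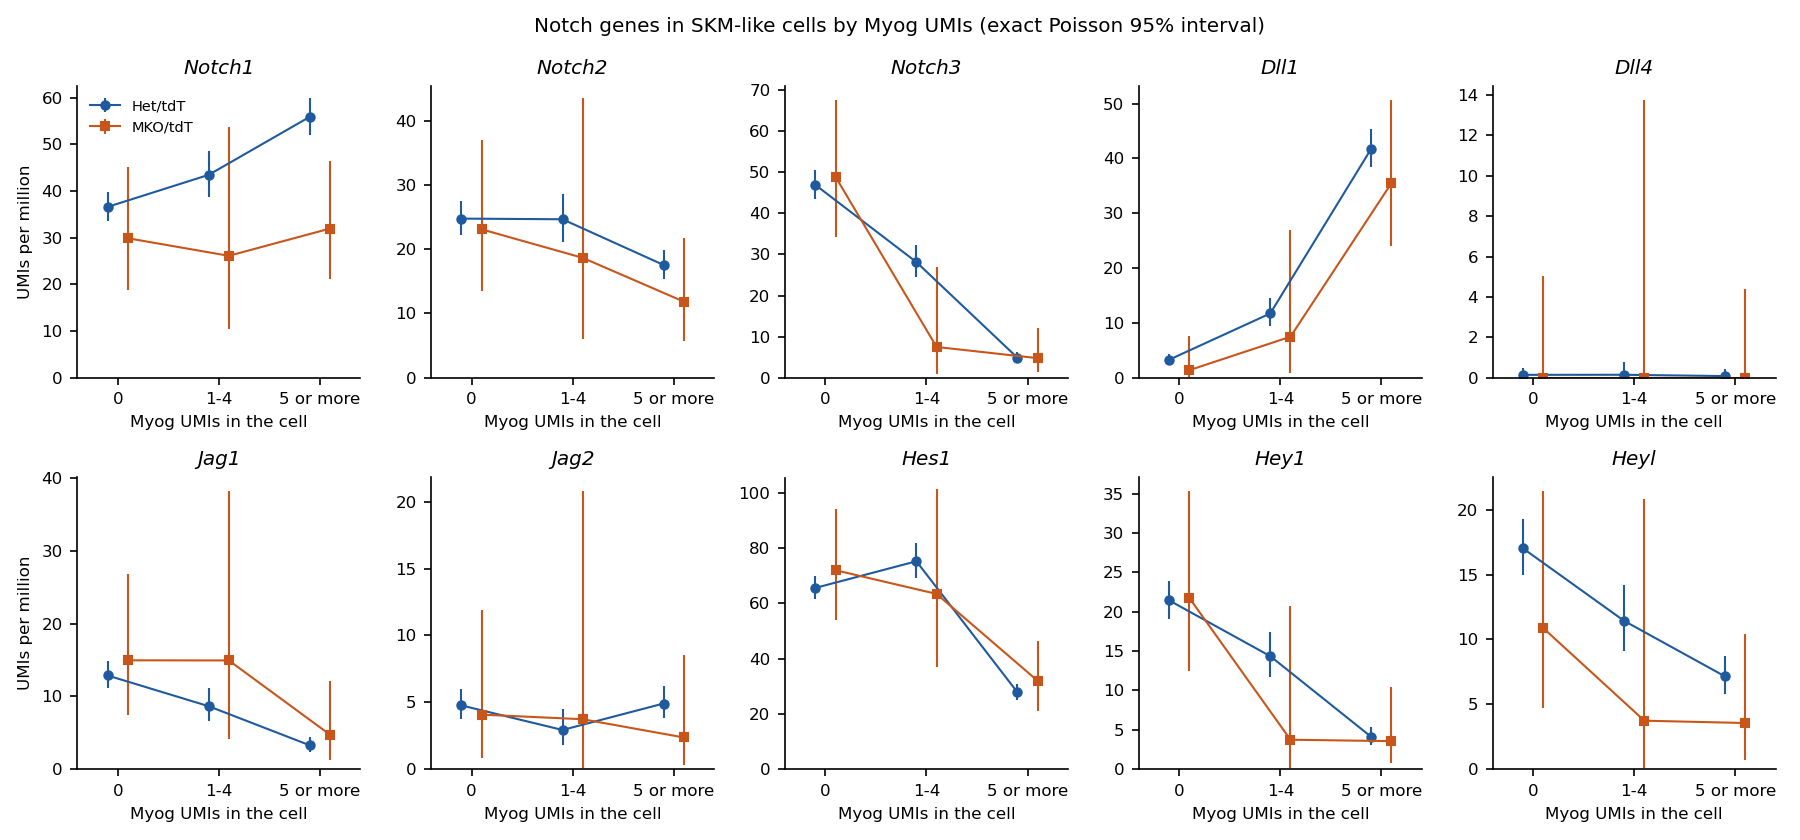
Level of each Notch gene (CPM) in SKM-like cells with 0, 1 to 4 and 5 or more Myog UMIs in Het/tdT (circles) and MKO/tdT (squares), with exact Poisson 95% intervals. In Het/tdT, Dll1 goes from 3.27 to 41.8 CPM while Notch3 goes from 47.0 to 4.83 CPM. The wide MKO/tdT intervals come from 46, 15 and 52 cells.

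Dll1 was the gene called higher. In Het/tdT its level was 3.27 (2.41 to 4.33) CPM at 0 Myog UMIs, 11.7 (9.34 to 14.5) at 1 to 4 and 41.8 (38.4 to 45.4) at 5 or more. The 3 intervals did not overlap, and the log2 ratio of the last bin over the first was 3.68 (3.25 to 4.13), a 12.8-fold difference. In MKO/tdT the levels were 1.36, 7.46 and 35.5 CPM, from 1, 2 and 30 UMIs, and the log2 ratio was 4.71 (2.12 to 10.06). Thinned to 2000 UMIs, 8.30% of Het/tdT cells with 5 or more Myog UMIs held a Dll1 UMI against 0.837% at 0, beside 0.174% of Mesen-like cells, at median depths of 13893, 14763 and 9521 UMIs before thinning. Unthinned, the shares were 43.2%, 4.18% and 0.723%.

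Among the receptors, Notch3 was called lower. It was 47.0 (43.5 to 50.6), 28.2 (24.4 to 32.3) and 4.83 (3.73 to 6.16) CPM over the 3 bins of Het/tdT, a log2 ratio of -3.28 (-3.67 to -2.91) and a 9.71-fold difference. MKO/tdT had 48.9, 7.46 and 4.74 CPM, with a log2 ratio of -3.37 (-5.32 to -1.89) from 4 and 36 UMIs, under the 50 needed for a call. Notch1 went the other way in Het/tdT, with 36.6 (33.6 to 39.8), 43.5 (38.8 to 48.6) and 55.9 (52.0 to 60.1) CPM and a log2 ratio of 0.61 (0.45 to 0.77), which was under 2-fold, although in cells thinned to 2000 UMIs it was 1.01 (0.51 to 1.53) and called higher. Notch2 was 24.8, 24.7 and 17.6 CPM, with a log2 ratio of -0.50 (-0.74 to -0.26). The 3 receptors therefore had 3 different courses in Het/tdT. In MKO/tdT Notch1 and Notch2 had log2 ratios of 0.10 (-0.77 to 0.98) and -0.96 (-2.25 to 0.25).

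The Jagged ligands did not follow Dll1. Jag1 was 12.9, 8.64 and 3.27 CPM in Het/tdT and was called lower, with a log2 ratio of -1.97 (-2.48 to -1.49). In MKO/tdT it was 14.9, 14.9 and 4.74 CPM. Jag2 was 4.76, 2.93 and 4.91 CPM in Het/tdT, and its log2 ratio was 0.04 (-0.46 to 0.55). Dll4 had 4 UMIs in all SKM-like cells of Het/tdT and 0 in those of MKO/tdT, so no ratio was read.

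All 3 targets were called lower in Het/tdT. Hey1 was 21.4, 14.4 and 4.09 CPM over the bins, with a log2 ratio of -2.39 (-2.83 to -1.97). Heyl was 17.0, 11.4 and 7.14 CPM, with a log2 ratio of -1.25 (-1.61 to -0.91). Hes1 was 65.6 (61.5 to 69.9), 75.3 (69.0 to 81.9) and 27.8 (25.1 to 30.8) CPM, with a log2 ratio of -1.24 (-1.41 to -1.06). Hes1 thus differed in shape from the Hey genes: its first bins overlapped only at their edges, and the drop lay between the second and the third.

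In MKO/tdT, only Hes1 had the 50 UMIs needed, and it was called lower, with 72.0 (53.9 to 94.2) CPM at 0 and 32.0 (21.1 to 46.5) at 5 or more Myog UMIs and a log2 ratio of -1.17 (-1.90 to -0.48). The call was lost with a mitochondrial limit of 5%, where the ratio was -0.99 (-1.77 to -0.24), and with raised class limits or thinning, which left Hes1 under 50 UMIs. Over all genes of that comparison 5.56% were called higher and 7.46% lower. The ratios of Hey1, -2.61 (-5.03 to -0.81), and Heyl, -1.61 (-4.16 to 0.45), rest on 16 and 3 and on 8 and 3 UMIs. The 5 Mesen markers summed to 32.6, 89.6 and 13 CPM over the 3 bins of MKO/tdT, and their part in the Hes1 ratio was not tested. The levels of Hes1 in the outer bins overlapped between the libraries, as 65.6 CPM of Het/tdT at 0 Myog UMIs lay inside the MKO/tdT interval.

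**Figure D3:**
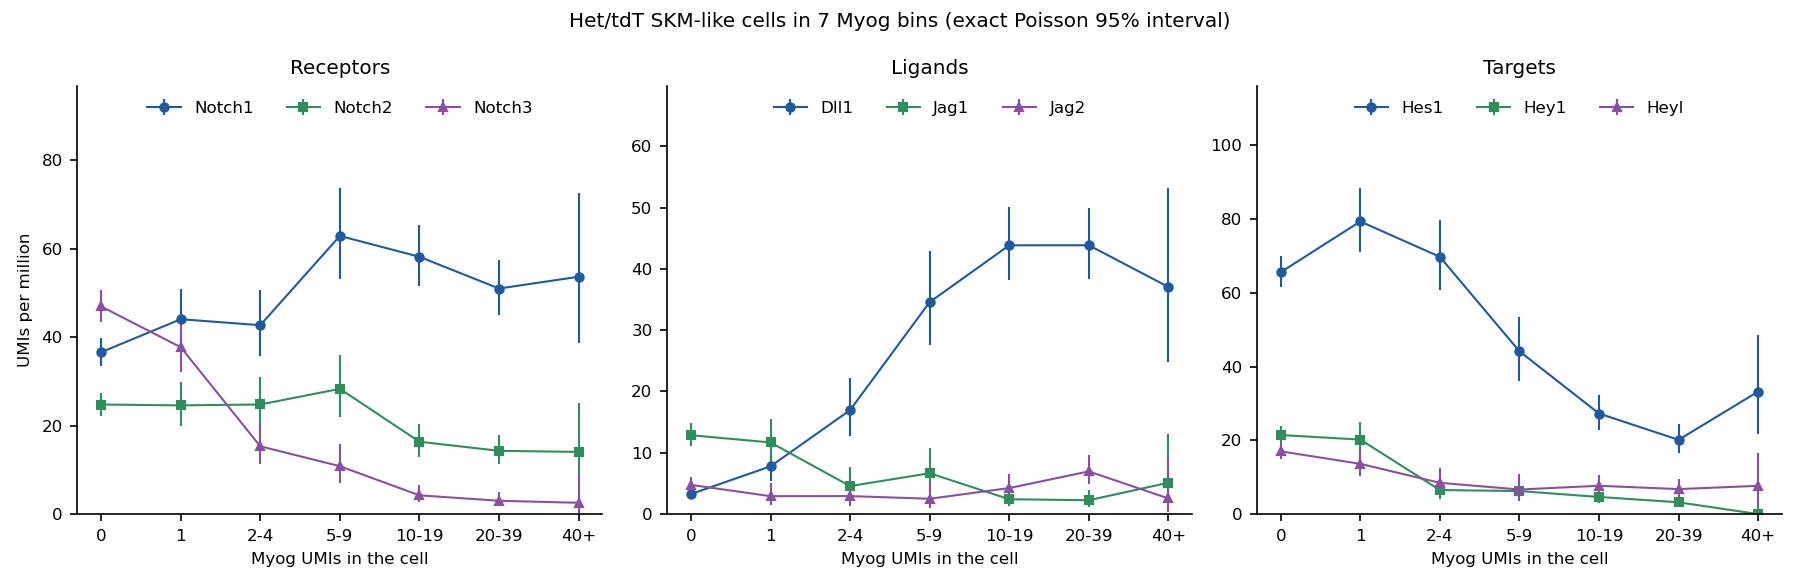
Level of receptors, ligands and targets (CPM) in Het/tdT SKM-like cells over 7 bins of Myog UMIs, with exact Poisson 95% intervals. Dll1 is at 3.27 CPM at 0 and 43.8 CPM at 10 to 19 Myog UMIs, and Hes1 is at 79.4 CPM at 1 and 20.1 CPM at 20 to 39.

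Finer bins, chosen after these values were known, placed the differences along Myog. With 0, 1, 2 to 4, 5 to 9, 10 to 19, 20 to 39 and 40 or more Myog UMIs, Dll1 was 3.27, 7.79, 17.0, 34.6, 43.8, 43.9 and 37.1 CPM. Notch3 was 47.0, 37.7, 15.3, 10.8, 4.24, 3.01 and 2.56 CPM. The intervals at 0 and 1 Myog UMI overlapped for Notch3, Hey1 and Jag1. Myog UMIs like those found outside muscle may mix these bins, which was not tested. The largest step in CPM for Notch3, Hey1 and Jag1 each came between 1 and 2 to 4 UMIs. Hey1 was 20.2 and 6.52 CPM there, and Jag1 11.7 and 4.56 CPM. Hes1 was still 69.8 CPM at 2 to 4 UMIs, 44.2 at 5 to 9 and 27.3 at 10 to 19. At 2 to 4 Myog UMIs, then, Hes1 overlapped its level at 0 while Hey1 and Notch3 lay below theirs. The last bin held 37 cells, and its intervals are wide.

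Cell cycle state was compared within Het/tdT SKM-like cells without Myog. Cells with at least 2 UMIs of Mki67 and Top2a together, genes of proliferating cells, numbered 677, and cells with 0 numbered 149. Of the 8 Notch genes with at least 50 UMIs, 0 were called higher and 0 lower, where 4.46% and 0.454% of all genes were called. Notch3 was 47.1 CPM in cycling and 46.3 in non-cycling cells, a log2 ratio of 0.02 (-0.32 to 0.39). Heyl was 17.3 and 16.8 CPM, with 0.04 (-0.54 to 0.66), and Hes1 65.2 and 60.1 CPM, with 0.12 (-0.18 to 0.43). Jag2 had the largest ratio, 1.0 (-0.43 to 2.93), on 55 and 4 UMIs. Without cells that passed Mesen as well, it was called higher, with 2.04 (0.12 to 5.13), and in thinned cells its ratio was -0.96 (-3.09 to 1.62). The median depths were 16114 and 11068 UMIs.

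The same Myog-free cells were also divided by Pax7, a division chosen after other values were seen. Hey1 was 24.8 CPM in the 376 cells with 3 or more Pax7 UMIs and 14.7 CPM in the 126 cells with 0, a log2 ratio of 0.75 (0.13 to 1.42). Heyl had a log2 ratio of 0.43 (-0.21 to 1.13), Notch3 of 0.19 (-0.17 to 0.57) and Hes1 of -0.00 (-0.33 to 0.34). Dll1 was 2.54 and 5.90 CPM, from 16 and 10 UMIs, with -1.21 (-2.44 to 0.09). Hey1 alone among the 9 measured genes had an interval on 1 side of 0, and its difference was under 2-fold. Only chosen genes were read in this division, so the share of all genes with such an interval is not known, and Hey1 is not singled out by it. Median depths were 16143 and 13466.5 UMIs, and Mki67 was also higher in the Pax7 cells, 318 against 202 CPM. Myod1 was lower in them, 135 against 193 CPM, with a log2 ratio of -0.51 (-0.70 to -0.33). Cells with 0 UMIs of Pax7 and Myog could pass the SKM limits only by the other SKM markers, Myod1 among them. The part of depth, cycling and the class limits in the Hey1 ratio was not tested.

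The other genes of the pathway, 35 in a list of receptors, ligands, nuclear partners, sugar transferases, proteases, inhibitors and targets, were read in the same way. Along Myog in Het/tdT, 29 had at least 50 UMIs, 5 were called higher and 2 lower, where 6.87% and 11.3% of all genes were called, and their median log2 ratio was -0.16. The largest was Dner, a non-canonical ligand known from neurons, with 3.95 CPM at 0 and 39 at 5 or more Myog UMIs, a log2 ratio of 3.30 (2.91 to 3.72). Hes6, an inhibitor of Hes1 known to promote differentiation, was 39.6 and 142 CPM, 1.85 (1.71 to 1.98). Rbpj, the DNA-binding partner of the receptors, was 134 and 293 CPM, 1.13 (1.05 to 1.21). Neurl1a, a ubiquitin ligase that acts on ligands, had 1.46 (1.12 to 1.82), and Dlk2, a non-canonical ligand, 1.17 (0.32 to 2.07) at 1.22 and 2.75 CPM.

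Lower were Lfng, a Fringe enzyme that adds sugars to Notch, with 20.1 and 5.88 CPM and a log2 ratio of -1.78 (-2.15 to -1.41), and Maml2, a Mastermind coactivator, with -1.62 (-2.59 to -0.73). In MKO/tdT 9 of the 35 had 50 UMIs, and Hes6 alone was called, higher, with 51.6 and 185 CPM and 1.84 (1.32 to 2.39). Rbpj there was 125 and 218 CPM, with 0.80 (0.43 to 1.18). Between cycling and non-cycling cells, 0 of 26 were called.

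The libraries were then compared within classes. In SKM-like cells, 2292 of Het/tdT and 113 of MKO/tdT, 9 Notch genes had at least 50 UMIs, and 0 were called higher and 0 lower in MKO/tdT, where 1.07% and 2.95% of all genes were called. The median log2 ratio was -0.31 for the 9 genes and -0.09 for all. Notch1 was 45.4 (43.2 to 47.6) CPM in Het/tdT against 30.3 (22.9 to 39.3) in MKO/tdT, with a log2 ratio of -0.58 (-0.99 to -0.20). Heyl was 12.1 and 6.49 CPM, -0.90 (-1.86 to -0.08), on 12 UMIs in MKO/tdT. These were the 2 genes with intervals below 0, and both were under 2-fold. In thinned cells Notch1 was called lower, with -2.09 (-5.15 to -0.21). Hes1 was 53.2 and 52.5 CPM, -0.02 (-0.33 to 0.28), and Dll1 19.7 and 17.9 CPM, -0.14 (-0.69 to 0.37). Dll4 was under 50 UMIs. Other measures also differed between these cells: Pax7 was 98.2 and 63.8 CPM, Myog 506 and 684, Mki67 227 and 151, and the summed 5 Mesen markers 116 and 31.9. Their part in the Notch ratios was not tested.

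The Myog bins held 957, 442 and 893 of the 2292 SKM-like cells of Het/tdT and 46, 15 and 52 of the 113 of MKO/tdT. Whether this mix differed beyond counting error was not tested, and ratios were also read within bins. For Notch1 they were -0.29 (-0.98 to 0.32) at 0, -0.74 (-2.06 to 0.32) at 1 to 4 and -0.81 (-1.42 to -0.25) at 5 or more. The difference in Notch1 was thus clear of counting error in the last bin only. For Hes1 they were 0.13 (-0.29 to 0.53), -0.25 (-1.04 to 0.45) and 0.20 (-0.42 to 0.76), and for Notch3 0.06 (-0.47 to 0.54), -1.92 (-4.97 to -0.04) and -0.03 (-1.95 to 1.40). The middle ratio of Notch3 passed 2-fold on 2 UMIs from 15 MKO/tdT cells. The ratio of Heyl was -0.65, -1.61 and -1.01, with 0 inside each interval.

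**Figure D4:**
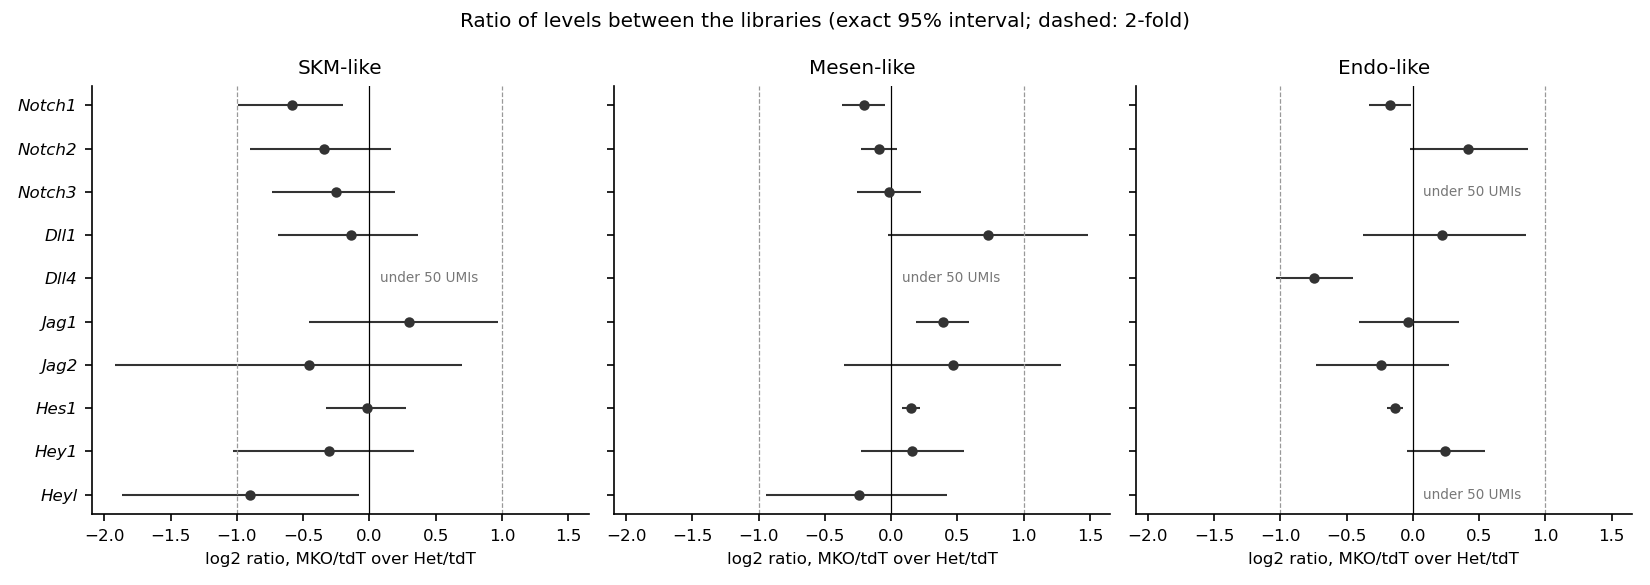
Log2 ratio of MKO/tdT over Het/tdT for each Notch gene with at least 50 UMIs in SKM-like, Mesen-like and Endo-like cells, with exact 95% intervals. The dashed lines mark 2-fold. All points drawn lie inside 2-fold, with Heyl in SKM-like cells at -0.90 and Dll4 in Endo-like cells at -0.74.

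In Mesen-like cells, 3456 and 2024, 0 of 9 genes were called higher and 0 lower, beside 1.33% and 1.1% of all genes. Dll1, at 0.886 and 1.47 CPM from 32 and 32 UMIs, had 0.73 (-0.02 to 1.48), and with a mitochondrial limit of 5% it was past 2-fold, 1.49 (0.61 to 2.41), but under 50 UMIs. Hes1 was 128 CPM in Het/tdT and 142 in MKO/tdT, 0.15 (0.08 to 0.22). Jag1 was 12.6 and 16.5 CPM, 0.39 (0.18 to 0.59), and Notch1 25.5 and 22.1 CPM, -0.21 (-0.37 to -0.05). Notch2, -0.09 (-0.23 to 0.04), and Notch3, -0.01 (-0.25 to 0.22), had 0 inside narrow intervals. Jag1 and Hes1 were on the higher side in Chon-like cells too, with 0.31 (0.02 to 0.60) and 0.25 (0.17 to 0.32). Heyl was on the lower side there, with -0.86 (-1.56 to -0.19), and the other genes with at least 50 UMIs had 0 inside their intervals.

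In Endo-like cells, 358 and 887, 0 of 8 genes were called higher and 0 lower, where 0.747% and 0.923% of all genes were. Dll4 came nearest, with 31.0 (26.4 to 36.2) CPM in Het/tdT against 18.5 (16.4 to 20.8) in MKO/tdT, -0.74 (-1.03 to -0.45). Lymphatic-like cells, low in Dll4, were 184 of 358 Endo-like cells in Het/tdT and 543 of 887 in MKO/tdT. The ratio was -0.45 (-0.79 to -0.11) without them and -0.72 (-1.27 to -0.14) within them, so Dll4 was on the lower side in both. In cells thinned to 2000 UMIs the ratio over all Endo-like cells was -0.15 (-0.97 to 0.71). Hes1 had -0.13 (-0.19 to -0.07), and -0.21 (-0.33 to -0.10) and -0.26 (-0.33 to -0.19) in the same split. Notch1 was -0.17 (-0.33 to -0.02), with 0.08 (-0.14 to 0.30) without the lymphatic-like cells and -0.31 (-0.53 to -0.08) within them. Marker sums also differed between the Endo-like cells of the libraries. From Het/tdT to MKO/tdT, the SKM list went from 15.4 to 1.52 CPM, the Mesen list from 201 to 120 and the Epi list from 6.63 to 13.3. Their part in the Endo-like ratios was not tested.

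In Peri-like cells, where 3 of the genes were highest, Notch3 had -0.40 (-0.87 to 0.04), Jag1 -0.00 (-0.54 to 0.52) and Heyl -0.01 (-0.51 to 0.48). With 158 and 85 cells, 0 lay inside each interval, and differences up to the limits given could not be seen at this depth. Of the other pathway genes, 3 of 30 were called lower in MKO/tdT SKM-like cells and 0 higher, beside 2.95% and 1.07% of all genes: Numbl, an inhibitor of Notch signalling, -1.11 (-1.96 to -0.38), Pofut1, the enzyme that adds fucose to Notch, -1.04 (-2.12 to -0.15), and Maml3, a coactivator, -1.03 (-2.17 to -0.09). They rest on 15, 10 and 9 UMIs in MKO/tdT. In Mesen-like cells 1 of 33 was called, the receptor Notch4, higher with 1.26 (0.52 to 2.03) at 0.748 and 1.79 CPM. Markers of other classes also differed between the Mesen-like cells of the libraries. The SKM list was lower in MKO/tdT, with a sum of 23.3 CPM in Het/tdT and 3.54 in MKO/tdT. Other lists were higher: the Endo list summed to 16.7 and 24.4 CPM, the Osteo list to 70.0 and 122, the Epi list to 9.11 and 21.6, and the Neu list to 71.3 and 108. Their part in the Notch4 ratio and in those of the 9 genes was not tested. In Endo-like cells 0 of 30 were called. In smaller groups, 1 of 26 pathway genes was called lower at 0 Myog UMIs, 0 of 25 at 1 to 4 and 2 of 26 at 5 or more. In lymphatic-like cells 1 of 26 was called lower and in Peri-like cells 1 of 20 higher. In Chon-like and in Neu-like cells 0 of 29 were called. The share of all genes called was not computed for these groups, so their counts have no background beside them. Ratios past 2-fold with limits on 1 side of 0 included that of Numbl, -1.37 (-2.59 to -0.37), at 5 or more Myog UMIs. Others were Pofut1 at 0 Myog UMIs, -1.57, and in lymphatic-like cells, -1.01 (-1.66 to -0.34), and Nrarp, a Notch target that limits signalling, in Peri-like cells, 1.07 (0.35 to 1.78).

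**Figure D5:**
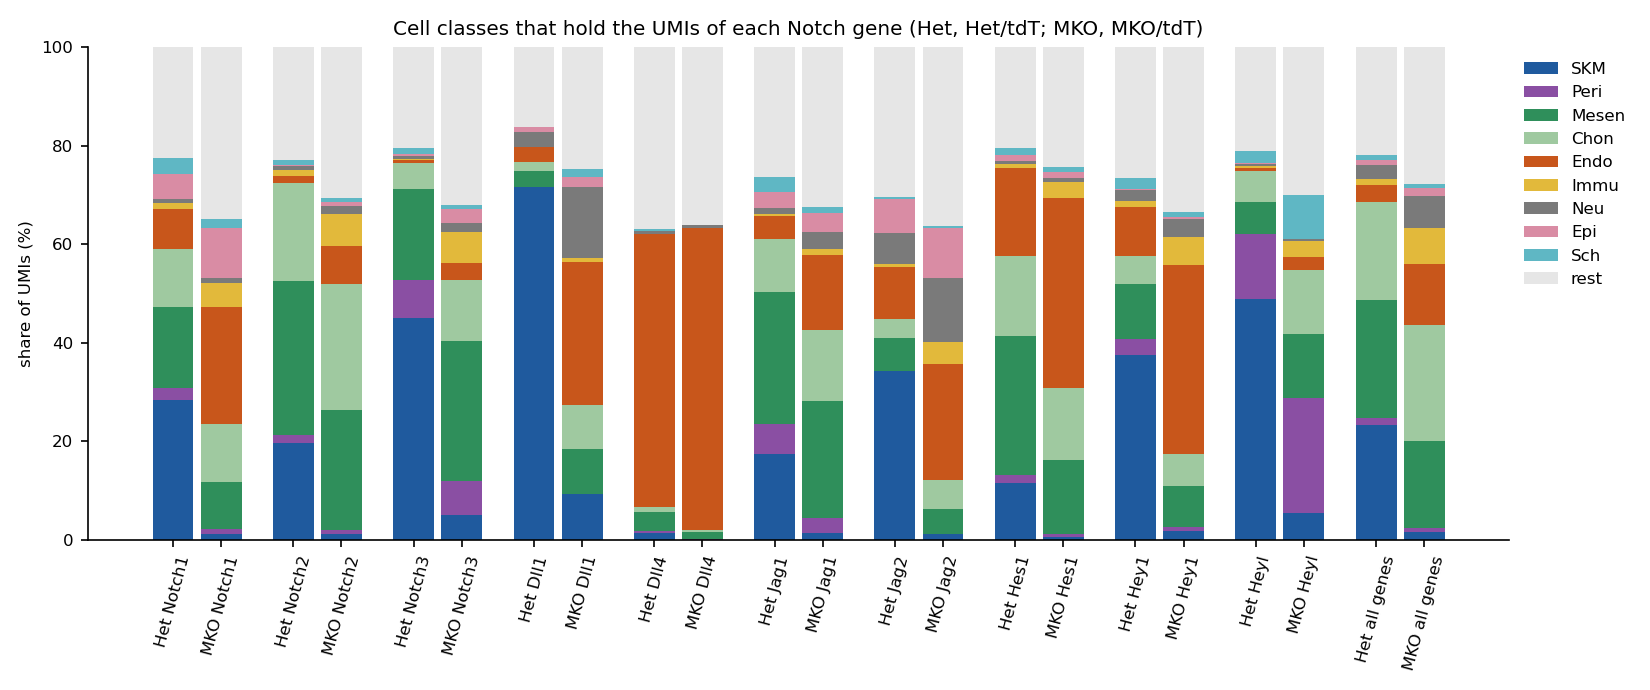
Share of each Notch gene's UMIs (%) that lay in each cell class, in Het/tdT (Het) and MKO/tdT (MKO), beside the share of the UMIs of all genes. The rest holds smaller classes, cells of several classes and cells of none. SKM-like cells hold 71.5% of Dll1 in Het/tdT but 9.30% in MKO/tdT.

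The classes held different shares of the libraries, and the sources of each gene's UMIs differed with them. SKM-like cells held 23.3% of all UMIs of Het/tdT and 1.5% of those of MKO/tdT, and Endo-like cells 3.38% and 12.3%. SKM-like cells held 71.5% (68.6 to 74.4) of the Dll1 UMIs of Het/tdT and 9.30% (6.49 to 12.8) of those of MKO/tdT, where Endo-like cells came first with 29.0% (24.3 to 34.0). For Heyl the SKM-like share was 48.8% (45.4 to 52.2) and 5.38% (2.81 to 9.21), and for Notch3 45.0% (42.9 to 47.2) and 5.09% (3.69 to 6.82). The class with most Hey1 UMIs was SKM-like cells in Het/tdT, with 37.5%, and Endo-like cells in MKO/tdT, with 38.3%.

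Levels over all kept cells were compared as well. Notch3 was 14 (13.4 to 14.6) CPM in Het/tdT and 6.71 (6.26 to 7.18) CPM in MKO/tdT, Heyl 5.79 (5.41 to 6.18) CPM in Het/tdT and 1.81 (1.58 to 2.07) CPM in MKO/tdT and Dll1 6.40 (6.00 to 6.82) CPM in Het/tdT and 2.89 (2.60 to 3.20) CPM in MKO/tdT over all kept cells. Hes1 was 108 (106 to 109) CPM in Het/tdT and 166 (164 to 169) CPM in MKO/tdT, and Dll4 1.89 (1.68 to 2.13) CPM in Het/tdT and 3.72 (3.38 to 4.07) CPM in MKO/tdT. Notch3, Heyl and Dll1 were thus lower and Hes1 and Dll4 higher in MKO/tdT as a whole, while within Endo-like cells Hes1 and Dll4 had ratios below 0. Hes1 had ratios above 0 in Mesen-like cells, 0.15 (0.08 to 0.22), and Chon-like cells, 0.25 (0.17 to 0.32). In Immu-like cells it was 56.8 CPM in Het/tdT and 75.8 in MKO/tdT, with intervals apart. In SKM-like, Peri-like and Neu-like cells 0 lay inside the interval of its ratio. The part of class makeup in the whole-library differences was not tested further.

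Genes with the most similar pattern were ranked by Pearson's r of log2(CPM + 1) over 16 populations, with both libraries summed, among 13941 genes with at least 200 UMIs. The populations share libraries and differ in depth, so these values describe patterns only. Closest to Dll4 were AU021092 (0.988), Prnd (0.986) and Tmem252 (0.986), to Hes1 E030030I06Rik (0.942), Mtmr12 (0.927) and Tgfbr2 (0.922) and to Jag1 Gas2l1 (0.933), Dnajb1 (0.903) and Lamc1 (0.898). For Heyl they were Map3k7cl (0.900), Jph2 (0.889) and Slc7a2 (0.871), and for Notch3 4930579G24Rik (0.856), Cenpm (0.854) and Bcl7c (0.853). For Dll1 they were Cecr2 (0.875), Tmem131l (0.858) and A330023F24Rik (0.848), and for Jag2 Zfp712 (0.910), Palmd (0.787) and Fryl (0.782). Notch1 was nearest to Sypl (0.877), Gpbp1l1 (0.876) and Plekhf2 (0.873), and Notch2 to Cad (0.896), Rfc1 (0.896) and Cd63 (0.889). None of the genes named here is one of the 10 Notch genes.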

How the data were processed

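The deposited table held UMI counts per gene and cell barcode for both libraries, made by the authors with Cell Ranger on mm10, with reads of the libraries down-sampled to like depth. The submitters' processing notes name Cell Ranger 3.1.0, whereas the matrix header and the study's methods name 5.0.0. Reads in introns were not counted, so unspliced RNA is missing from the levels, and 3' counts are not scaled by gene length. Barcode suffixes gave the library, and the label titles contradict the quality summaries on which library is which.

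Cells within 2 SD of the mean log10 UMIs and log10 genes of their library and with at most 10% mitochondrial UMIs were kept. Classes came from fixed UMI limits on marker genes. A cell that passed Mesen and 1 other class took the other, and cells that passed 2 or more other classes were left out. No doublet caller was run. UMIs were summed per library and population and divided by the population's total (CPM). Exact Poisson limits were given for levels, limits from the exact binomial split of 2 sums for log2 ratios, and Clopper-Pearson limits for shares, all at 95% and covering counting error only, since PCR reads behind UMIs and cells of 1 library are not replicates. With 1 library per genotype no test was made and no p-value is given. A gene was called when it differed at least 2-fold with its limits on 1 side of 0, among genes with at least 50 UMIs. For shares of cells, each cell was also thinned to 2000 UMIs. Named genes were the 10 genes, Srsf2, and the genes of the pathway list that were called. The genes, lists and limits were chosen with earlier results of these data known, and the finer Myog bins and the division by Pax7 after seeing the values. Alternatives were other cell filters, class limits, denominators, Myog bins, thinning, and leaving out barcodes shared by the libraries. Scripts were tested on simulated data and used NumPy 2.4.6, pandas 2.3.3, SciPy 1.17.1 and matplotlib 3.10.9 under Python 3.11.15. Gene positions came from GENCODE M21 and promoter windows from RefSeq on GRCm38.p6. The authors' clusters were not used here. The genes most like Hey1 in pattern are not reported here.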

Additional observations from a re-analysis of the deposited data

Results flagged for a closer look

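Neural progenitor (NPC-like) cells were left out of the order of classes because they numbered 11 in Het/tdT and 19 in MKO/tdT, yet 4 of the genes were above the level that a count of 0 allows in both libraries. Notch1 was 256 CPM in Het/tdT and 122 CPM in MKO/tdT, beside 217 and 262 CPM in Epi-like cells. Notch3 was 51.1 and 30.5 CPM. Dll1 was 51.1 and 38.1 CPM, on 5 UMIs in each library, beside 19.7 and 17.9 CPM in SKM-like cells. Hes1 was 61.3 and 129.5 CPM. These are values from few cells, and no order or ratio given here rests on them.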

How the results depend on the processing

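No paired analysis was possible because there was 1 library per genotype. Of the single gene values recomputed under the alternatives, 334 lay inside the interval reported and 29 outside it, and 0 called values changed sign. Many of these intervals are wide where MKO/tdT SKM-like cells are involved, so lying inside them is a weak check. Of the counts, 106 were equal or near to those reported, among them counts of 0 against 0, and 8 moved. In cells thinned to 2000 UMIs, 2 genes were called higher and 3 lower along Myog in Het/tdT, with 6 genes at 50 UMIs or more. The shares of all genes called were computed for the main setting only, so the counts under alternatives have no background beside them. Notch1 joined Dll1 there with a log2 ratio of 1.01 (0.51 to 1.53). The MKO/tdT count along Myog was 0 when thinned, 0 with a mitochondrial limit of 5% and 0 with raised class limits, where 0, 1 and 0 genes had 50 UMIs. Jag2 made the count between cycling and non-cycling cells 1 when cells that passed Mesen as well were left out. Between libraries in SKM-like cells the count of lower genes was 1 when thinned, from Notch1 at -2.09 (-5.15 to -0.21), and 1 within 1 to 4 Myog UMIs, from Notch3. Both rest on few MKO/tdT UMIs. Dll1 in Mesen-like cells was 0.73 (-0.02 to 1.48) and became 1.49 (0.61 to 2.41) with the limit of 5%. The causes were not tested. Over the alternatives, the log2 ratio along Myog in Het/tdT ranged from 3.40 to 3.73 for Dll1 and from -3.73 to -2.81 for Notch3. MKO/tdT ratios in SKM-like cells rest on 113 cells, and the width of each interval says how small a difference could be seen for that gene.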
